A study of Rattus norvegicus with 12 samples.

Results

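The voltage-gated and potassium channel genes of the embryonic rat forebrain were examined here. The set held the genes whose symbol starts with Kcn, Cacna, Cacnb or Cacng, or with Scn and a digit. Only probe sets with a single gene symbol were used, and where a gene had more than 1 the probe set with the highest mean over all arrays was kept. This gave 118 channel genes out of 14506 genes with a symbol of their own, read by 121 of 29214 probe sets. The 6 homozygous embryos carried the BACHD transgene, a bacterial artificial chromosome with the whole human huntingtin gene in its mutant form (96 CAG repeats), and the 6 wild-type embryos lacked it. All embryos were of embryonic day 14 and came from 3 dams, and 1 array was run for each embryo on its medial and lateral ganglionic eminences together. The labels gave neither the dam nor the sex of an embryo, so a share of either in a difference was not tested. The comparison asks how the transgene bears on gene expression before birth.

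Ion channels set the membrane potential of neurons and of the progenitors that make them. Voltage-gated sodium channels carry the upstroke of the action potential, voltage-gated potassium channels end it, and inward rectifiers and leak channels hold the resting potential. Voltage-gated calcium channels couple depolarisation to calcium entry, which in embryonic neurons bears on migration and on the growth of axons. Most of these channels are complexes of a pore-forming subunit with accessory subunits that set its gating and its transport to the membrane. The ganglionic eminences give rise to the projection neurons of the striatum and to interneurons of the forebrain.

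Values are log2 intensities as deposited. The median of an array lay between 7.69 and 7.76 among homozygous and between 7.67 and 7.71 among wild-type arrays, and any pair of arrays had a Pearson r of 0.994 to 0.998 over all probe sets. No array was a copy of another, the smallest SD of the differences between a pair being 0.146. All 12 measured genes of a list that marks the ganglionic eminence, among them Dlx1, Gsx2, Nkx2-1, Lhx6 and Gad2, were above the background defined in the next paragraph, as were all 15 of postmitotic neurons and all 9 of radial glia. Of the choroid plexus list 1 of 5 genes was above it, and Kl lay just under it. The defining marker Ttr was not above it, at 6.25 in homozygous and 6.08 in wild-type embryos on average.

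No detection call was used here, so the olfactory receptor genes served as unexpressed background. Their 59 probe sets had a 95th percentile of 6.75 over the wild-type means, and a channel gene was counted as above background where its own wild-type mean exceeded that level. Probes differ in affinity, so each gene was set against this limit, and which of a family's genes reads highest served to choose an example and says nothing of relative expression. By this measure 93 of 118 channel genes, 78.8%, were above background in wild type, against 73.2% of all 14506 genes. All 93 were also above the limit of 6.69 that holds for homozygous means, where 96 genes were. The limit is not sharp: 32 genes lay within 0.5 of it, and the count was 81 with the 99th percentile and 108 with the 90th. Counted array by array, 84 genes were above the array's own limit on all 12 arrays, 11 were below it on all 12, and 23 were above it on some.

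**Figure D1:**
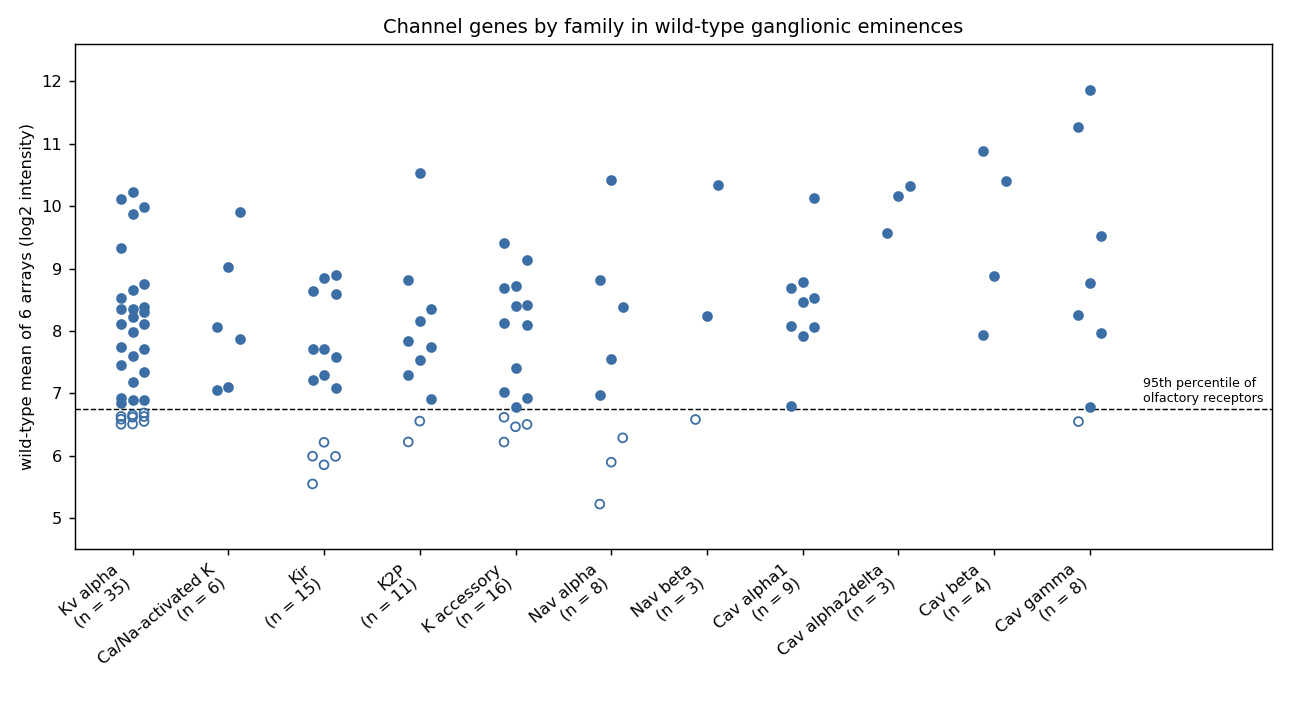
Mean log2 intensity over the 6 wild-type arrays (y axis) for each of the 118 channel genes by family (x axis, with the number of genes), filled where above and open where not above the 95th percentile of olfactory receptor probe sets (dashed line, 6.75). Heights of different genes cannot be compared, and in 4 families (calcium- and sodium-activated K, Cav alpha1, Cav alpha2delta and Cav beta) all genes lay above the line.

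Among the pore-forming voltage-gated potassium channels, 26 of 35 genes were above background in wild type. Kcnd3, which carries the fast inactivating A-type current, had a lowest, median and highest log2 intensity of 10.14, 10.19 and 10.36 in wild-type embryos. Kcnd2, the other main A-type subunit of neurons, averaged 10.12 ± 0.113 (SD, n = 6, as for all means of wild type given here). Kcnh2, best known from the repolarisation of the heart, averaged 9.88 ± 0.0994. The silent subunits Kcng1, Kcng2, Kcng3, Kcng4, Kcnf1, Kcns1 and Kcns2, which form no channel alone and modify Kcnb channels, were also above background, as was Kcnb2. The 9 genes not above it were Kcna1, Kcna4, Kcna10, Kcnc2, Kcnh6, Kcnq1, Kcns3, Kcnv1 and Kcnv2. Kcnc2 serves rapid firing in the mature brain, and neither it nor Kcna1 passed the array's own limit on any wild-type array.

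The 6 calcium- and sodium-activated potassium channel genes were all above background. Kcnn1, a small-conductance channel opened by calcium, averaged 9.90 ± 0.121 in wild type, and Kcnma1, the pore of the large-conductance channel, 9.02 ± 0.0616. Of the inward rectifiers 10 of 15 were above background. Kcnj3, a G-protein-gated subunit, read 8.64, 8.94 and 9.05, and Kcnj8, a subunit of ATP-sensitive channels that marks pericytes, averaged 8.85 ± 0.0910. All 11 measured genes of an endothelium and pericyte list were above background in the same tissue. Kcnj1, Kcnj5, Kcnj13, Kcnj15 and Kcnj16 were below the array's own limit on every array of both genotypes. Kcnj13 is known from the choroid plexus, of whose list 4 of 5 genes were not above background. Of these, Kl averaged 6.74 in wild type, at the limit, and passed the array's own limit on 3 of 6 wild-type arrays. Folr1, at 6.51, lay within 0.5 of the limit, and Ttr and Clic6 lay further below it.

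Of the leak channels with a pair of pore domains, 9 of 11 were above background, and Kcnk15 and Kcnk6 were not. Kcnk10, a channel opened by stretch and by lipids, read 10.46, 10.54 and 10.60. Its relative Kcnk2 averaged 8.82 ± 0.0886. Of the accessory potassium channel subunits 12 of 16 were above background. Kcnip1, a calcium sensor that binds Kcnd channels, read 9.11, 9.39 and 9.68, and Kcnmb4, an accessory subunit of large-conductance channels typical of neurons, averaged 9.14 ± 0.0656. Kcne1, Kcnip4, Kcnmb2 and Kcnmb3 were not above background.

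Of 8 pore-forming sodium channel genes, Scn1a, Scn2a, Scn3a, Scn4a and Scn8a were above it in wild type, and Scn7a, Scn10a and Scn11a were below the array's own limit on all 12 arrays. Scn3a, known for its expression in fetal and newborn brain, read 10.36, 10.42 and 10.46. Scn2a and Scn8a, the main sodium channels of excitatory neurons in the mature brain, averaged 8.39 ± 0.159 and 8.81 ± 0.0869. Scn10a and Scn11a are channels of pain-sensing neurons. Scn4a, the channel of skeletal muscle, averaged 6.98 ± 0.0870, within 0.5 of the limit. Of 3 beta subunits, Scn3b read 10.23, 10.34 and 10.44 and Scn2b averaged 8.24 ± 0.114. Scn4b, a subunit abundant in the adult striatum, was below the limit on all 6 wild-type arrays, at 6.55, 6.58 and 6.60.

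All 9 pore-forming calcium channel genes were above background, although Cacna1f, known from the retina, averaged 6.80 ± 0.103 and passed the array's own limit on 5 of 6 wild-type arrays. Cacna1h, a low-threshold T-type channel, read 10.07, 10.11 and 10.27. The N-type gene Cacna1b and the P/Q-type gene Cacna1a, which drive transmitter release at mature synapses, averaged 8.53 ± 0.0779 and 8.79 ± 0.0413. All 3 alpha2delta genes, whose products lie outside the cell and aid transport of the pore, were above background, with Cacna2d3 at 10.21, 10.34 and 10.43. So were all 4 beta subunits, which bind the pore inside the cell, with Cacnb3 at 10.85, 10.87 and 10.93. Of 8 gamma genes 7 were above background and Cacng6 was not. Cacng7 read 11.80, 11.85 and 11.99, and Cacng4 averaged 11.28 ± 0.0645. Both belong to the group that serves AMPA-type glutamate receptors as auxiliary subunits. Cacng1, a subunit of the skeletal muscle channel, averaged 6.78 ± 0.108, just over the limit, as were Kcnmb1 at 6.79 and Cacna1f. Just under it lay Kcnv2 at 6.69 and Kcna10 at 6.65.

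Channel genes that lie side by side were set against the background in turn. In the order of protein-coding genes of the rat assembly GRCr8, 26 channel genes formed 11 runs of neighbours. In 6 runs some genes were above background and some were not, in 4 all were above and in 1, Kcnj1 with Kcnj5, none was. The count of mixed runs hung on the limit, being 2 with the 90th percentile and 8 with the 99th, and Kcna10, Scn4b, Kcna1 and Cacng6 lay within 0.5 below it. Kcna3 averaged 9.98 ± 0.0285 in wild type, its neighbour Kcna2 8.11 ± 0.0922 and the next gene, Kcna10, 6.65 ± 0.115, which is not above the limit of the 95th percentile but above the 6.41 of the 90th. Kcnj2 was above and Kcnj16 beside it was not, at 5.99 ± 0.114, and likewise Kcnj6 and Kcnj15, at 6.21 ± 0.0925 for Kcnj15. These were the mixed runs that remained with the 90th percentile. The promoters of the Kcna3 run are shown, since its genes share protein family and locus but not their place against the 95th percentile. They are RefSeq sequences of GRCr8, 250 bases before to 50 after the gene's start, with each CG pair in capitals. The Kcna3 run was chosen after its values were seen. The run of Kcna5, Kcna1 and Kcna6, not shown, meets the same reason. Kcna3 lies at chr2:197320074-197320373, Kcna2 at chr2:197393280-197393579 and Kcna10 at chr2:197474464-197474763, all on the plus strand.
Kcna3: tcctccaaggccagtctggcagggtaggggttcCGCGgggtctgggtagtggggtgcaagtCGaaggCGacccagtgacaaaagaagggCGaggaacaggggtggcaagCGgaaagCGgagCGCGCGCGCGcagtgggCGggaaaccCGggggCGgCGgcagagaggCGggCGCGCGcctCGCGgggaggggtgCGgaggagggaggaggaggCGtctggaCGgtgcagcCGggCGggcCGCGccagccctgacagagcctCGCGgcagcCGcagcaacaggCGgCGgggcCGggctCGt
Kcna2: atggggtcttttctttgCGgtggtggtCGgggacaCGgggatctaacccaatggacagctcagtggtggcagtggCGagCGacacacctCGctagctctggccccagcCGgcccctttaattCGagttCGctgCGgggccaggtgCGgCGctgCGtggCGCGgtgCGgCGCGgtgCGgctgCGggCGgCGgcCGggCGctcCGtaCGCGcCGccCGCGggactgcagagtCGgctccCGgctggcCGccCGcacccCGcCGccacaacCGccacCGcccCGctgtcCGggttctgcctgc
Kcna10: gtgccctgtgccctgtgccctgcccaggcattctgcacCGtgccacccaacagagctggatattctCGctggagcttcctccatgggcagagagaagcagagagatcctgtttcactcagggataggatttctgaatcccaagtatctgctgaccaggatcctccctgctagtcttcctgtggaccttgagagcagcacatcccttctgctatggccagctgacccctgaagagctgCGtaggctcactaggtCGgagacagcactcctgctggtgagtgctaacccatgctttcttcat
These hold 36, 40 and 4 CG pairs, where the median of 27457 rat promoters of this length is 7, and 5.79%, 3.44% and 70.4% of all promoters hold at least as many. Promoters were matched for 83 of 118 channel genes, 70.3%, too few for a comparison of CG content over the set, which is void. The letters TTCAGCACC, the first part of the motif bound by the repressor REST, were searched on both strands. They stood in 2 of the 83 promoters, or 2.41%, those of Cacng3 and Kcnh6, and in 104 of all 27457, or 0.379%. With promoters missing for the other channel genes, these shares are not compared either.

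**Figure D2:**
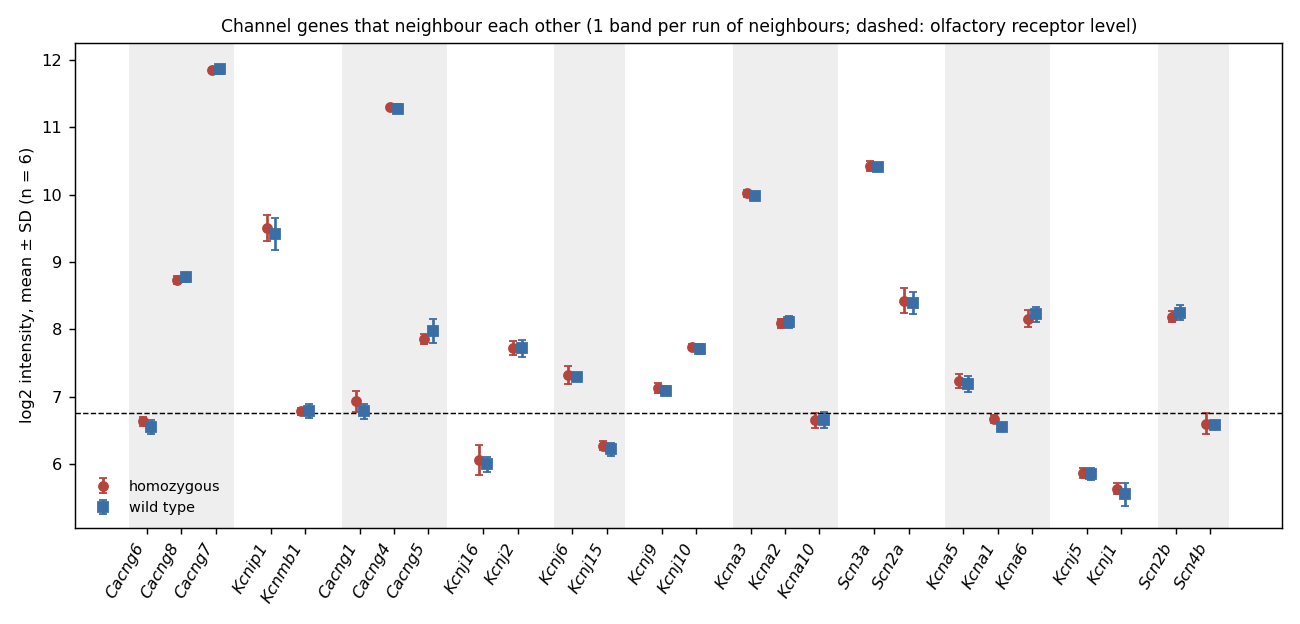
Mean ± SD of log2 intensity (y axis, n = 6 per group) for the 26 channel genes that lie directly beside another channel gene, homozygous as circles left of wild type as squares, with 1 band for each of the 11 runs of neighbours and the olfactory receptor level (6.75) dashed. Kcna10, Kcna1, Kcnj16, Kcnj15, Cacng6 and Scn4b lie under the line beside neighbours above it.

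Between homozygous and wild-type embryos no channel gene passed an adjusted p of 0.05 in limma, adjusted over all probe sets (0 of 118). The background was 0.424% of all probe sets, 124 of 29214. The lowest adjusted p in the set was 0.113. At an unadjusted p under 0.05 there were 12 channel genes, 10.2% of the set, against 15.0% of all probe sets. Of these 10 were higher in homozygous embryos (8.47% of the set, against 10.2% of all probe sets) and 2 were lower (1.69%, against 4.81%). The split of channel genes into higher and lower depended on the scaling. It was 2 higher and 7 lower with each array centred on its median and 4 and 4 after quantile normalization. The shares of all probe sets under these scalings are not given here. In none of the 118 genes were the groups free of overlap, as they were in 1.86% of all probe sets. Differences, homozygous minus wild type on a log2 scale, ran from -0.26 for Kcnk1 to 0.22 for Kcnab3. Their median was 0.026, against 0.021 over all 14506 genes, and 64.4% of channel genes had a positive difference, against 61.4% of all genes. Centring each array on its median lowers the difference of every probe set alike, by 0.038. This left 53 of 118 channel genes positive, against 76 as deposited, so the signs given for each family rest on the scaling. The share of all genes positive after centring is not given here.

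The intervals limit the size of a difference that could have been missed, if the embryos are taken as independent. Litter was not modelled, since the labels do not give the dam. The 95% confidence interval, taken gene by gene, lay within 1.2-fold in either direction for 81 and within 1.5-fold for all of the 93 genes above background. For the 25 others the probe set may not read the gene, so their intervals bound nothing. The bounds are those of the deposited scale, on which RMA may compress folds. The limits farthest from equality were 1.27-fold higher, for Kcnab3, and 25.7% lower, for Kcnk1. A p that misses the threshold does not show that a gene was alike in both genotypes. In a whole eminence, fewer cells of a type and less RNA per cell cannot be told apart. Positive differences were more frequent among genes not above background. The 25 such channel genes had a median difference of 0.060, 84.0% of them positive, and the 93 above it 0.020, 59.1% positive. Over all genes the medians were 0.051 for 3890 not above and 0.010 for 10616 above, with 76.2% and 56.0% positive. The wild-type mean both sets this split and is subtracted in the difference, so the split itself can give part of this pattern. The part of intensity in the differences was not tested.

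**Figure D3:**
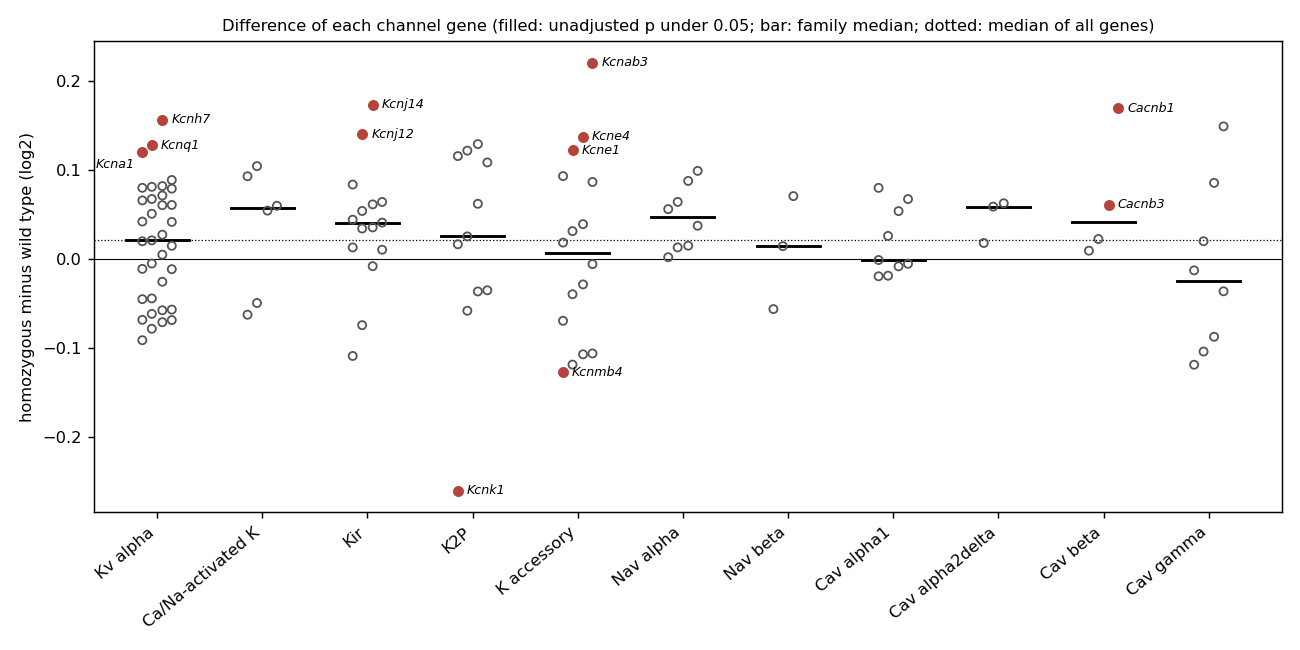
Difference of each of the 118 channel genes, homozygous minus wild type in log2 units (y axis), by family (x axis), with genes at an unadjusted p under 0.05 filled and named, the family median as a bar and the median of all genes (0.021) dotted. The family medians lie between -0.025 for Cav gamma and 0.059 for Cav alpha2delta, and no gene passed the adjusted threshold.

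The 4 genes with the smallest p came from accessory subunits, leak channels and calcium channel beta subunits. Kcnab3, a cytoplasmic subunit of Kcna channels, had a lowest, median and highest log2 intensity of 8.81, 8.88 and 9.03 in homozygous embryos, against 8.56, 8.64 and 8.84 in wild type. The homozygous value was above every wild-type value in 5 of 6 embryos, and wild type 1 and 4 reached into the homozygous range. The difference was 0.22 ± 0.0570 (SE, n = 6 per group; adjusted p = 0.113 in limma).

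Cacnb1, which binds the pore of calcium channels, read 10.48, 10.58 and 10.65 in homozygous embryos, against 10.33, 10.37 and 10.58 in wild type. The highest wild-type value was that of wild type 1, and the other wild-type arrays lay below every homozygous one. The difference was 0.17 ± 0.0440 (adjusted p = 0.114 in limma). Its call depended on that array: without wild type 1 the adjusted p was 0.0397 at a difference of 0.20, with array weights it was 0.0319, and without both wild type 1 and 2 it was 0.0167. Over all settings tried it ranged from 0.0167 to 0.244. Cacnb3 differed in the same direction by 0.061 ± 0.0250 (adjusted p = 0.279 in limma).

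Kcnk1, a weakly conducting leak channel, read 7.70, 7.96 and 7.99 in homozygous embryos, against 7.96, 8.15 and 8.37 in wild type. The lowest wild-type array, wild type 3, was the one that lay within the homozygous range. The difference was -0.26 ± 0.0782 (adjusted p = 0.154 in limma), and -0.17 without wild type 1 and 2. Kcnmb4 read 8.92, 9.01 and 9.10 in homozygous embryos, against 9.07, 9.12 and 9.24 in wild type. In 4 of 6 homozygous embryos it was below every wild-type value. The difference was -0.13 ± 0.0429 (adjusted p = 0.197 in limma).

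**Figure D4:**
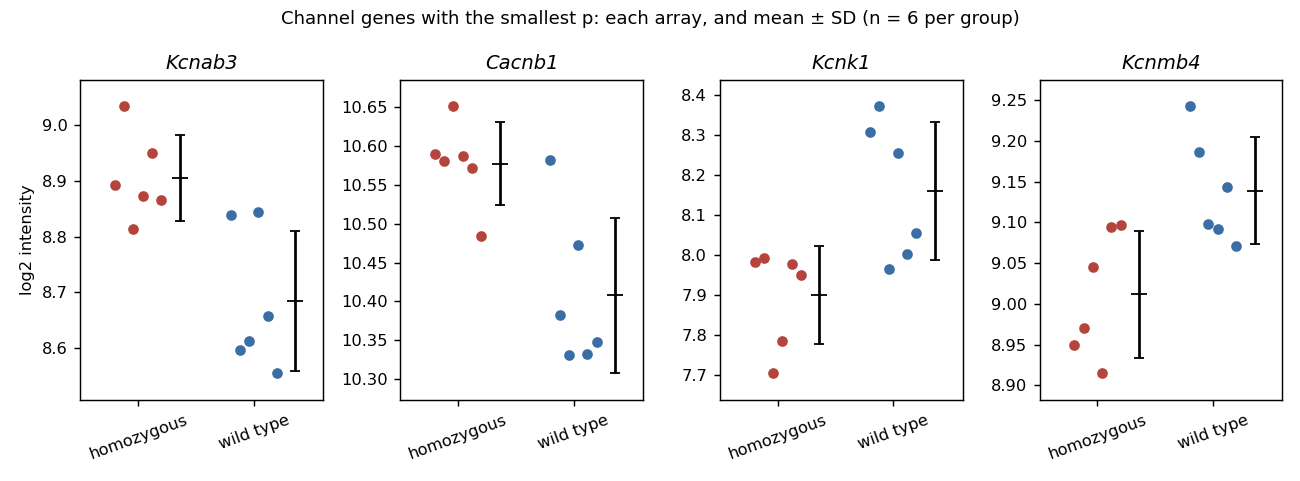
Log2 intensity (y axis, own scale in each panel, not from 0) on each array for Kcnab3, Cacnb1, Kcnk1 and Kcnmb4, homozygous left and wild type right, with the mean and SD beside the points (n = 6 per group). In each panel at least 1 array of one group lies within the range of the other.

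In the pore-forming voltage-gated potassium family 0 of 35 genes passed, with 3 higher and 0 lower at an unadjusted p under 0.05 and a median difference of 0.021. Kcnh7, of the same subfamily as Kcnh2, read 8.46, 8.73 and 8.86 in homozygous embryos, against 8.45, 8.52 and 8.65 in wild type. In 4 of 6 homozygous embryos it was above every wild-type value, at a difference of 0.16 ± 0.0630 (adjusted p = 0.272 in limma). Kcna1 differed by 0.12 ± 0.0446 and Kcnq1 by 0.13 ± 0.0526, and neither was above background in wild type. Kcnd3 stood at -0.091 ± 0.0486, and at -0.030 without wild type 1 and 2, its highest arrays.

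The 6 calcium- and sodium-activated genes had a median difference of 0.057 and none at an unadjusted p under 0.05. Kcnt2, opened by sodium, stood at 0.093 ± 0.0473, and Kcnn4 and Kcnn1, opened by calcium, at 0.10 ± 0.0555 and 0.054 ± 0.0493. Of the 15 inward rectifiers 12 had a positive difference, 8 with arrays centred, and 2 an unadjusted p under 0.05. Their median of 0.041 was -0.0092 after quantile normalization. Kcnj14, an inward rectifier of the class of Kcnj2, read 8.71, 8.74 and 8.87 in homozygous embryos, against 8.36, 8.62 and 8.82 in wild type. The wild-type range was wide and took in 5 of the 6 homozygous values, at a difference of 0.17 ± 0.0691 (adjusted p = 0.266 in limma). Its lowest arrays were wild type 1 and 2, and without them the difference was 0.072. Kcnj12, of the same class, differed by 0.14 ± 0.0605 and Kcnj3 by -0.11 ± 0.0711. Among the 11 leak channels Kcnk6, not above background, stood at 0.12 ± 0.0572 and Kcnk10 at 0.017 ± 0.0300.

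The 16 accessory potassium channel genes were even in sign, 8 positive and 8 negative, with 3 higher and 1 lower at an unadjusted p under 0.05. Besides Kcnab3 and Kcnmb4 these were Kcne1 and Kcne4, single-span subunits that alter the gating of Kv channels, at 0.12 ± 0.0556 and 0.14 ± 0.0633. Kcne1 was not above background, and Kcne4 passed the array's own limit on 4 of 6 wild-type arrays. Kcnip1 and Kcnip2 were each read by 2 probe sets. For Kcnip1 both had positive differences, 0.093 and 0.11. For Kcnip2 the probe set used gave -0.11 and the other 0.082, so they disagree in sign.

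All 8 sodium channel pore genes had positive differences of at most 0.099, of which 4 stayed positive with arrays centred, and none had an unadjusted p under 0.05. Scn3a read 10.29, 10.45 and 10.49 in homozygous embryos, against 10.36, 10.42 and 10.46 in wild type. The ranges overlapped over most of their width, and the difference of 0.015 ± 0.0350 had a 95% interval of -0.060 to 0.090. The second probe set of Scn3a gave -0.017. Scn1a, a channel of inhibitory neurons in the mature brain, differed by 0.088 ± 0.0667, and Scn7a, below background, by 0.099 ± 0.0837. Among the beta subunits Scn3b stood at 0.071 ± 0.0451 and Scn2b at -0.056 ± 0.0566.

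The 9 calcium channel pore genes had a median difference of -0.0011 and lay between -0.019 and 0.080. Cacna1a stood at 0.067 ± 0.0384, the L-type gene Cacna1d at 0.080 ± 0.0615 and Cacna1h at -0.019 ± 0.0388. All 3 alpha2delta genes were positive, and 2 with arrays centred, with Cacna2d2 at 0.059 ± 0.0321 and Cacna2d3 at 0.063 ± 0.0410. The 4 beta genes were positive too, and 2 with arrays centred. The 8 gamma genes had a median of -0.025, which ran from -0.062 to 0.018 over the settings tried, the highest without wild type 1 and 2. Cacng1 stood at 0.15 ± 0.0737, Cacng7 at -0.013 ± 0.0297 and Cacng5 at -0.12 ± 0.0730, the last at -0.0081 without wild type 1 and 2. Such small differences depend on how arrays are scaled. The median over all channel genes was -0.012 once each array was centred on its own median, and -0.0026 with quantile normalization.

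Channels that mark mature striatal projection neurons were taken as a group of 8. Of these 6 were above background in wild type, and Kcna4 and Scn4b were not. None passed in limma and none had an unadjusted p under 0.05, with a median difference of -0.013. Kcnj2, a strong inward rectifier, read 7.60, 7.70 and 7.88 in homozygous embryos, against 7.51, 7.75 and 7.84 in wild type. Kcnj4, of the same class, read 7.12, 7.28 and 7.40 in homozygous embryos, against 7.13, 7.19 and 7.30 in wild type. For both genes the ranges overlapped, at differences of 0.010 and 0.061, and the first was negative with arrays centred or quantile normalized. Kcnab1 stood at -0.11 ± 0.0616 and Kcnd2 at -0.058 ± 0.0523.

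Of 29 measured genes whose products work with these channels, 24 were above background, where 73.2% of all genes were. None passed in limma, against 0.424% of all probe sets. At an unadjusted p under 0.05, 3 were higher and 1 lower, against 10.2% and 4.81% of all probe sets. Stac2, an adaptor of L-type calcium channels, read 8.27, 8.38 and 8.43 in homozygous embryos, against 8.06, 8.23 and 8.30 in wild type. In 5 of 6 homozygous embryos it was above every wild-type value, at a difference of 0.17 ± 0.0481 (adjusted p = 0.132 in limma). Fgf13, which binds sodium channels and microtubules, read 9.01, 9.14 and 9.29 in homozygous embryos, against 9.13, 9.39 and 9.69 in wild type. In 3 of 6 homozygous embryos it was below every wild-type value, and the difference was -0.25 ± 0.0809 (adjusted p = 0.181 in limma), and -0.15 without wild type 1 and 2. Rem1, a small GTPase that inhibits calcium channels, stood at 0.18 ± 0.0658 and was not above background in wild type. The list also held Rest, the gene of the repressor REST, which was above background and stood at 0.11 ± 0.0414 (adjusted p = 0.247 in limma). In each of these partner genes the groups overlapped.

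Within groups the channel genes varied little between embryos, with a pooled SD between 0.0330 for Cacnb3 and 0.226 for Cacng3 and a median of 0.101. The 4 most variable genes, chosen after their values were seen, were Cacng3, Kcnip2, Kcnip1 and Kcnj16. Cacng3, an auxiliary subunit of AMPA-type receptors in the forebrain, read at most 8.26 in homozygous embryos, against 8.47 on wild type 1, 8.80 on wild type 2 and at most 8.13 on the other wild-type arrays. Kcnip2, a partner of Kcnd2, read at most 8.53 in homozygous embryos, against 8.71 and 8.75 on wild type 1 and 2 and at most 8.35 on the others. Wild type 1 and 2 thus stood apart from the other 10 arrays for both genes. Kcnip1 was also highest among wild-type arrays on these, at 9.68 and 9.65, but homozygous arrays reached 9.70. Kcnip2 differed by -0.11 ± 0.113 with all arrays and by 0.055 without wild type 1 and 2. Of 38 channel genes followed across settings, 22 had a difference that moved by over 1.5 times or changed sign without these 2 arrays. Differences near 0 meet this easily, as Cacng7 did from -0.013 to 0.012, and the share over all genes was not taken. Without wild type 1 and 2 Kcnip1 stood at 0.22, Scn7a at 0.012 and Kcnab1 at -0.046.

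Marker lists of other cells moved with these arrays in part. The mean over 15 genes of postmitotic neurons lay between 11.38 and 11.51 in homozygous embryos and was 11.53 and 11.55 on wild type 1 and 2, the highest of the 12 arrays. Not all members went this way. Elavl3 read at least 12.52 in homozygous embryos, against 12.19 and 12.15 on wild type 1 and 2. It read at least 12.56 on the other wild-type arrays. Map2 was lowest of the 12 arrays on wild type 1, at 12.18, and read 12.29 on wild type 2. Nefl and Nefm of this list were lower in every homozygous than in any wild-type embryo, which lowers the homozygous list means. Their differences were -0.42 (adjusted p = 0.0273 in limma) and -0.21. The mean over 5 genes of pallial neurons lay between 9.35 and 9.49 in homozygous embryos and was 9.67 and 9.59 on wild type 1 and 2. It was as high, at 9.69 and 9.77, on wild type 3 and 4, where Cacng3 read 8.02 and 8.10 and Kcnip2 8.22 and 8.11. All 5 measured pallial genes were above background. The erythroid list lay between 8.65 and 8.96 in homozygous embryos and was highest on wild type 1 and 2, at 8.97 and 9.28. The microglia list was highest on wild type 1 at 7.63, and the endothelium and oligodendrocyte precursor lists on wild type 2 at 8.84 and 8.05. Radial glia were lowest on wild type 1, at 10.91. The part of these cell types in the spread of the channel genes was not tested.

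**Figure D5:**
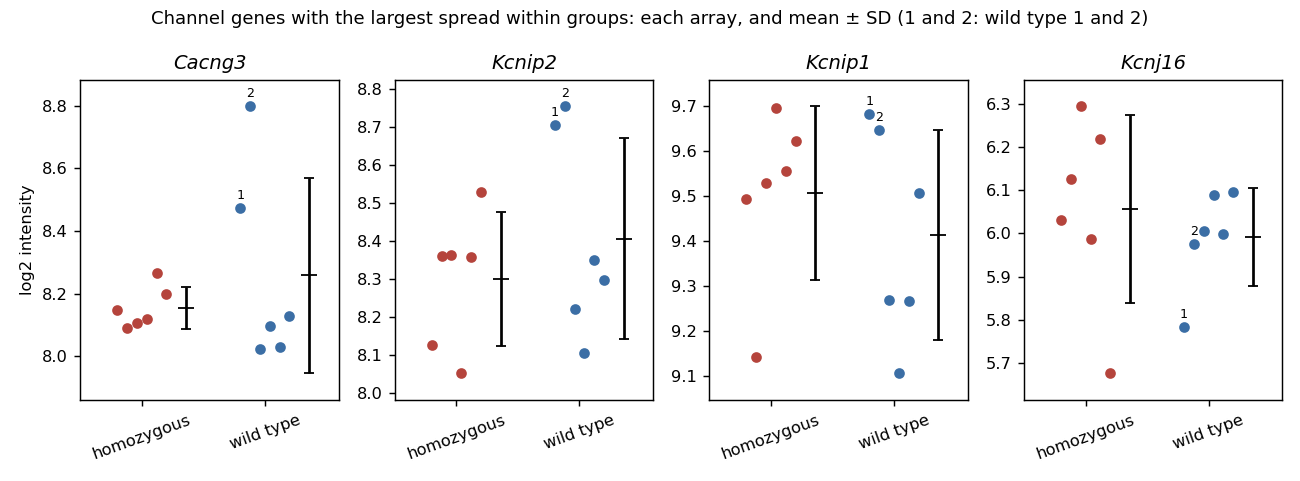
Log2 intensity (y axis, own scale in each panel, not from 0) on each array for the 4 channel genes with the largest pooled SD within groups, homozygous left and wild type right, with mean and SD (n = 6 per group) and with wild type 1 and 2 numbered. These 2 arrays are the highest wild-type arrays for Cacng3, Kcnip2 and Kcnip1 but not for Kcnj16.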

How the data were processed

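Each embryo was run on 1 Affymetrix Rat Gene ST array. Log2 intensities, 1 per array and probe set, were deposited. Per the submitters' processing notes Partek 6.4 and RMA were used, with no order or settings. RMA compresses differences, so folds may be too small. The platform annotation gave 1 symbol for 15310 probe sets, several for 323 and none for 13581; 2 of those with several held a channel gene and were left out. All 118 members matched RefSeq of GRCr8, used for names and neighbours.

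Genotype was the sole term of a linear model (limma 3.58.1 under R 4.3.3; eBayes with trend; 2-sided), and p-values were Benjamini-Hochberg adjusted across the 29214 probe sets. The fit was tested on simulated data. Arrays have no read depth, and their number limits the precision. The labels do not say that equal replicate numbers pair embryos, so none were paired in the main fit.

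The text names, in each of 11 families, the 2 genes with the smallest p and the one with the highest wild-type mean, then examples of the channels of mature striatal neurons and the 3 partner genes with the smallest p. Genes at an unadjusted p under 0.05, genes beside the background limit and examples by known role were added. Members and lists were chosen with earlier results of these data known. Alternatives were a replicate block, 2 other scalings, no trend, array weights, a filter on dim probe sets, the mean of a gene's probe sets, other background percentiles and leaving out each array. Leaving out wild type 1 and 2 together was chosen after seeing the data.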

Additional observations from a re-analysis of the deposited data

Results flagged for a closer look

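Of 82 sets of 6 values, 38 channel genes and 3 partner genes in each genotype, 5 held a sample farther from the others than Dixon's criterion allows, and chance gives about 1 in 20. Kcnip1 read 9.14 in homozygous embryo 2, below 9.49 to 9.70 in the other homozygous embryos. Scn3a read 10.29 in the same embryo, below 10.44 to 10.49 in the others. Cacng7 read 11.80 in homozygous embryo 6, below 11.85 to 11.87 in the others, and 11.99 in wild type 1, above 11.80 to 11.85 in the other wild-type embryos. Kcna4, which was not above background, read 6.30 in homozygous embryo 1, below 6.57 to 6.66 in the others.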

How the results depend on the processing

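No channel gene passed in limma, and 1, Cacnb1, did with array weights, without wild type 1 and 2 together and without wild type 1; leaving out 1 array gave 0 to 1. At an unadjusted p under 0.05 the 10 higher genes became 2 with arrays centred on their medians and 4 with quantile normalization. They became 6 with the filter on dim probe sets, which takes dim channel genes such as Kcna1 out of the count. With 1 array left out they ran from 4 (without homozygous 5) to 16 (without homozygous 1), with 5 without wild type 1 and 6 without wild type 2. The 2 lower genes became 7 with arrays centred, 4 with quantile normalization, 1 without wild type 1 and 2, and 2 to 4 with 1 array left out, 4 being without wild type 6. The shares of all probe sets in these settings are not given here, so the counts show nothing particular to channel genes. The median over all channel genes was -0.012 with arrays centred. With the replicate block 0 genes passed, with 11 higher and 2 lower at an unadjusted p under 0.05; the deviations of same-numbered embryos correlated with r between -0.0817 and 0.256, and 1 of 6 correlated best with its own number. No partner gene passed in any setting.

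Of 38 channel genes followed, 27 kept their sign in all settings and 11 did not, and the 3 partner genes followed kept theirs. Medians of Kir, accessory, Nav beta, Cav beta and Cav gamma genes moved by more than the spread between replicates in at least 1 setting. Without wild type 1 and 2 the differences were -0.020 for Kcnn1, -0.014 for Kcnk10, 0.0078 for Scn2b, 0.025 for Cacna1h, 0.012 for Cacng7, -0.060 for Kcnj2, 0.055 for Kcnip2, 0.017 for Kcnk2 and 0.0087 for Kcnd2. With array weights they were -0.0026 for Kcnk10, 0.0038 for Cacna1h and -0.0065 for Kcnj2. With arrays centred they were -0.021 for Kcnk10, -0.023 for Scn3a, -0.027 for Kcnj2 and -0.023 for Scn4b. With quantile normalization they were -0.027 for Kcnj2 and -0.046 for Scn4b, and with the mean of its probe sets Scn3a was at -0.00092. Without 1 array they ran from -0.033 to 0.0065 for Cacna1h, from -0.025 to 0.013 for Cacng7, from -0.031 to 0.036 for Kcnj2 and from -0.041 to 0.046 for Scn4b. The causes were not tested. Of 11 wild-type levels followed none moved. With 6 arrays a group, the intervals given above limit what could be seen.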
